A study of Homo sapiens with 4 samples.

Results

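The genes of claudins, occludin and the zonula occludens proteins were examined in HER2-positive breast cancer cells and in their lapatinib-resistant clones. The members were CLDN1, CLDN3, CLDN4, CLDN7, CLDN8, CLDN12, OCLN, TJP1 and TJP3, and a probe was assigned to one of them when its RefSeq accession matched that gene. By this rule 8 of the 9 genes had a probe, out of 16422 genes matched on the array, and they were represented by 13 probes. No probe carried an accession that matched TJP3, the gene of ZO-3, which was therefore not analysed here. Of the 13 probes, 12 reached a signal of 100 on at least 1 array and were kept, and all 8 genes had a kept probe.

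Tight junctions seal the space between neighboring epithelial cells and separate the apical from the basolateral membrane. Claudins are membrane proteins that join into strands and set which ions pass between cells, occludin joins the same strands, and the cytoplasmic zonula occludens proteins tie them to actin. In luminal mammary epithelium claudin-3, claudin-4 and claudin-7 are the characteristic claudins, and low expression of these genes marks the claudin-low subtype of breast cancer.

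Total RNA was measured in parental SkBr3 cells, SkBr3/Lap cells, parental BT474 cells and BT474/Lap cells, with 1 array per sample and 4 arrays in all. SkBr3 and BT474 are human breast cancer cell lines, and the parental cells are labeled as vehicle. Each resistant culture was 1 clone, obtained by raising the concentration of lapatinib, which blocks the kinase activity of EGFR and HER2, up to 1 μM. For its protein blots the study kept such clones in 1 μM lapatinib. Resistance and the presence of the drug cannot be told apart by comparing them with vehicle cells. The labels number the SkBr3 clone 3 and the BT474 clone 6, whereas the text of the study uses these numbers the other way round, so the clones are named by cell line here. The 75th percentile of the probe signals ranged from 1115 to 2074 between arrays, the dimmest signal marked as well above background from 13.3 to 16.01, and no spot was saturated. The SkBr3/Lap array lay on a slide of its own, so slide and clone cannot be told apart for that line, while the other 3 arrays shared a slide. In bulk RNA, fewer cells expressing a gene and less RNA per cell cannot be told apart.

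The cell type was checked with marker genes. EPCAM, KRT8, KRT18, KRT19 and ERBB2 were well above background on all 4 arrays. CDH1, the gene of the adherens junction protein E-cadherin, lay near background in both SkBr3 samples, not marked as well above it, with signals of 11.95 in SkBr3 and 4.66 in SkBr3/Lap, and reached 44710 in BT474 and 56836 in BT474/Lap. An epithelial identity by these markers thus held on the SkBr3 arrays with the exception of CDH1.

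Each signal below is the processed intensity on a linear scale. Fold changes were taken after each array had been divided by its own 75th percentile, so a signal can be higher in a clone while its scaled level is lower. The log2 fold changes of the members carry ± the error that the scanner software assigned, since each member probe had 1 spot. It came to 0.20 or 0.21 for all values so marked, and is not a spread measured on that probe. For bright probes with 10 spots, the median standard deviation of the log2 signals was 0.063 to 0.071 per array. Neither value covers the spread between cultures. A single array per condition leaves the fold changes without a replicate check, so no p-value is given for a clone against its parental cells.

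The promoters of the claudin genes that changed at least 2-fold in one clone and whose start sites RefSeq lists here, CLDN1 and CLDN7, are shown to 250 bases before the start site, because the zinc finger repressors of epithelial junction genes, which include SNAI1 and SNAI2, bind the motif CAGGTG. Sequences are from RefSeq on GRCh38.p14, written 5′ to 3′ along the gene, with CAGGTG on either strand (read as CAGGTG or CACCTG) in capitals. For CLDN7 the downstream one of 2 listed start sites is shown, chosen for its matches, since the window of the other start site held 0.
CLDN1, chr3:190322447-190322696, minus strand: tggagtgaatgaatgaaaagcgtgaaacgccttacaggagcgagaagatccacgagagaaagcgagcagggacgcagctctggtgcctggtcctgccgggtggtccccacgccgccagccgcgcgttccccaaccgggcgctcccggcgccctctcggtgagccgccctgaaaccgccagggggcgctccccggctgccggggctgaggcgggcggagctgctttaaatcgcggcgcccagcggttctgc
CLDN7, chr17:7262479-7262728, minus strand: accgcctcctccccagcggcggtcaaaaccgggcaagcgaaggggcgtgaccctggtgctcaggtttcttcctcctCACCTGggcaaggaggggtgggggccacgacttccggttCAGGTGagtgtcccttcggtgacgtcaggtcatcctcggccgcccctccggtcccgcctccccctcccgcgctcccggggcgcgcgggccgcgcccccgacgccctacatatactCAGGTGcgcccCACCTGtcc

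The CLDN1 stretch held no CAGGTG. The CLDN7 stretch held 4, whose first bases lay at positions -174, -135, -20 and -9 from the start site, and a further one lay at position 6. The window of 250 bases before and 50 bases after this start site thus contained 5 matches, a number reached or exceeded by 33 of 35116 windows in the RefSeq table (0.094%). It was picked as the window with the most matches among the 14 member windows, so this share is not a test. At least 1 match was present in 6 of the 14 member windows, against 20.6% of all windows. Among the members with a listed window, 5 of 8 genes had a match in at least 1 window, against 24.1% of all 27305 genes. A gene with more windows has more places for a match, and the 8 genes include TJP3, which had no probe. CLDN3 had 1, at 37 bases after the start site, TJP1 had 1 in 1 of its 4 windows, OCLN had matches in both of its windows, TJP3 in 1 of 2, and CLDN4 and CLDN12 had none. CLDN8 had no listed window. Letters that match a motif do not show that a factor binds there.

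**Figure D1:**
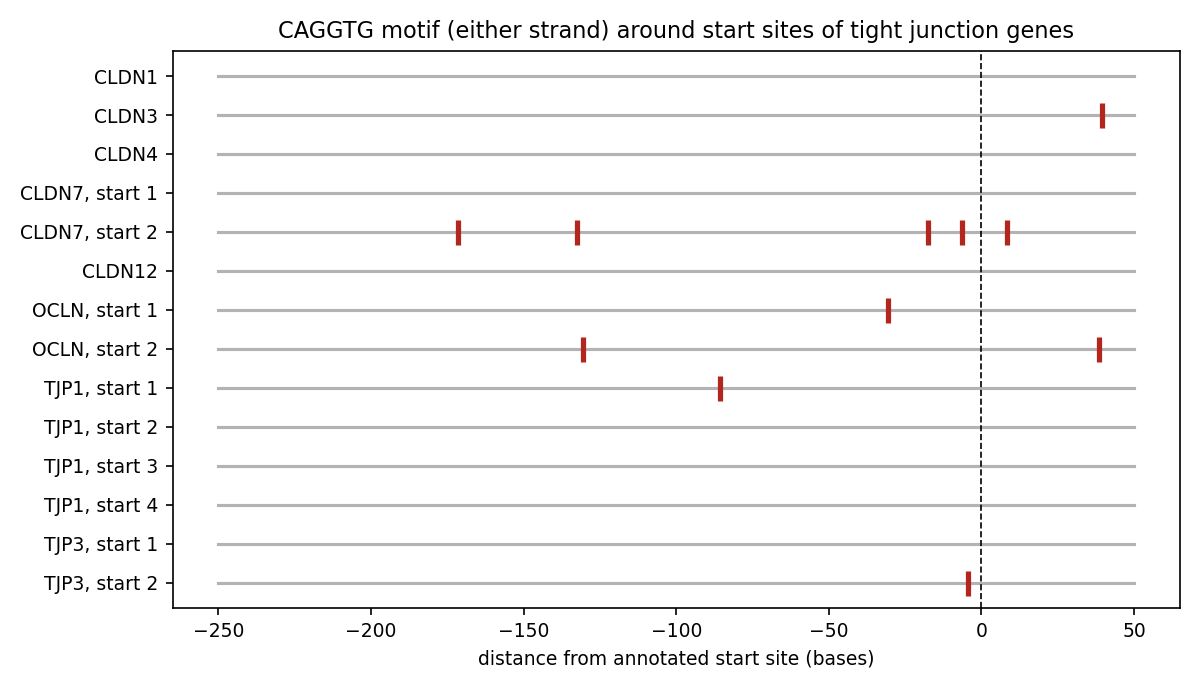
Positions of CAGGTG on either strand (red ticks) in each listed window of the member genes, plotted as distance in bases from the annotated start site (dashed line), from 250 bases before to 50 bases after. CLDN7 at its second start site holds 5 matches and no other window holds more than 2.

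Most of the tight junction genes changed less than 2-fold in either clone. With each gene represented by its brightest kept probe, 1 of the 8 members, CLDN1, was at least 2-fold higher in SkBr3/Lap than in SkBr3 cells and 0 were at least 2-fold lower. Over all 12159 named genes with a kept probe, 13.5% rose and 13.0% fell by this measure in that clone. In BT474/Lap cells CLDN8 was the 1 member past 2-fold upward, against 8.60% of all named genes, and CLDN7 the 1 member past 2-fold downward, against 5.15%. No member passed 2-fold in both clones in the same direction, against 2.46% of all genes higher and 1.21% lower in both, and 0 members passed it in opposite directions, against 2.57%. The other 5 members stayed under 2-fold or without a value in both clones, as did 66.0% of all genes. The median log2 fold change of the members was 0.24 in SkBr3/Lap, where the median of all genes was -0.05, and -0.34 in BT474/Lap, over the 7 members with a value, where the median of all genes was -0.08. With 8 members, a count of 0 or 1 is near the share found for all genes.

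**Figure D2:**
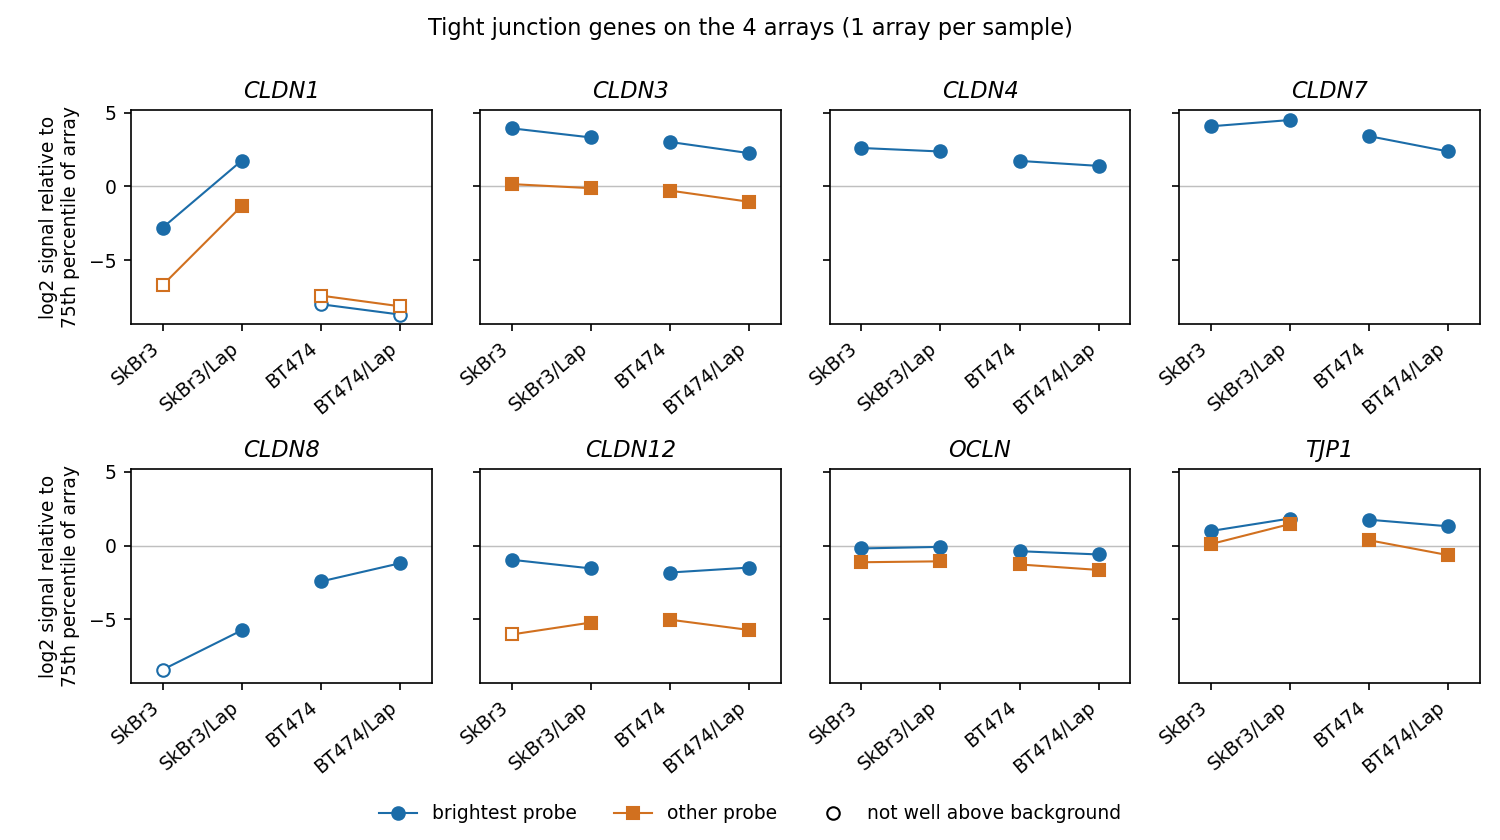
Scaled log2 signal (log2 signal minus the 75th percentile of its array) of each member probe on the 4 arrays, with a line joining each clone to its parental cells. Open symbols are probes not well above background. CLDN1 rises only between the SkBr3 arrays and is near background on both BT474 arrays, whereas CLDN3, CLDN4, CLDN7, OCLN and TJP1 stay well above background on every array.

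CLDN1 encodes a barrier-forming claudin that is required for the skin barrier. Its brighter probe gave a signal of 160 in SkBr3 and 6963 in its clone, and of 4.58 in BT474 and 4.09 in its clone. Only the SkBr3 arrays were well above background, and the clone was by far the higher of them. The log2 fold change in SkBr3/Lap was 4.55 ± 0.21, or 23.4-fold. The other CLDN1 probe gave signals of 10.8, 826, 6.87 and 6.04 in the same order, was well above background in SkBr3/Lap alone, and was at least 27.7-fold higher there. In BT474 cells and their clone neither probe was well above background, so no fold change is given. The level in parental SkBr3 cells was at least 10.4-fold that in parental BT474 cells, and in SkBr3/Lap at least 385-fold that in BT474/Lap.

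Markers of other cell types also differed between SkBr3/Lap and SkBr3 cells. The luminal marker ERBB2 was 3.74-fold lower in SkBr3/Lap (4.06-fold by its other probe), and the summed scaled signal of the 6 luminal markers was 806 in SkBr3 and 483 in its clone, against 749 in BT474 and 500 in its clone. All 4 basal or myoepithelial markers were at least 2-fold higher in SkBr3/Lap than in SkBr3, namely KRT5 (at least 14.3-fold), KRT14 (17.0-fold, and 1.81-fold by its other probe), TP63 (13.0-fold) and ACTA2 (17.3-fold), and their summed scaled signal was 0.39 in SkBr3 and 6.75 in its clone, against 1.07 in BT474 and 1.44 in its clone. Of the 3 fibroblast markers with a probe, COL3A1 (at least 11.7-fold) and PDGFRB (at least 2.18-fold) were higher in SkBr3/Lap, while COL1A2 was not well above background on any array, and the summed scaled signal was 0.01 in SkBr3 and 0.20 in its clone, against 0.01 in BT474 and 0.01 in its clone. Among the 4 endothelial markers, CDH5 (8.43-fold) and PECAM1 (at least 5.38-fold) were higher in SkBr3/Lap, while VWF was 1.44-fold higher by its brighter probe (log2 fold change -1.69 by the other) and CLDN5 had a log2 fold change of -0.73. In BT474/Lap, PECAM1 was at least 2.38-fold higher and VWF 2.18-fold lower by its brighter probe (log2 fold change of at least 0.06 by the other). The summed scaled signal of the endothelial markers was 0.18, 0.68, 0.79 and 0.41 in the same order of arrays. Among the leukocyte markers CD3E was 2.05-fold higher by its brighter probe (log2 fold change -0.12 by the other) in SkBr3/Lap, and the defining marker PTPRC was not well above background on any array. The part of other cell types in the rise of CLDN1 was not tested.

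CLDN3 and CLDN4, which encode receptors of the Clostridium perfringens enterotoxin, are neighbors on chromosome 7 with 0 annotated genes between them. The brighter CLDN3 probe had signals of 17045 in SkBr3 and 20662 in its clone, and of 9333 in BT474 and 8016 in its clone. On the scaled level both clones lay below their parental cells, by 1.53-fold in SkBr3/Lap (log2 fold change -0.62 ± 0.20) and 1.69-fold in BT474/Lap (-0.76 ± 0.20). The other CLDN3 probe gave log2 fold changes of -0.27 and -0.76. The single CLDN4 probe had signals of 6779, 10697, 3839 and 4407 in the same order, with a log2 fold change of -0.24 ± 0.20 in SkBr3/Lap, and -0.34 ± 0.20 in the BT474 clone. For CLDN4 the difference was little larger than the software error in SkBr3/Lap, and exceeded it more clearly in BT474/Lap. Between the lines the order was the same for both genes, with SkBr3 above BT474 by 1.90-fold for CLDN3 and 1.84-fold for CLDN4 among parental cells, and by 2.09-fold and 1.97-fold among clones.

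CLDN7, whose product binds the epithelial cell adhesion molecule EpCAM, differed in sign between the clones. Its single probe had signals of 18758 in SkBr3 and 46887 in its clone, and of 12302 in BT474 and 8684 in its clone. It was thus highest in SkBr3/Lap and lowest in BT474/Lap. The log2 fold change was 0.43 ± 0.20 in SkBr3/Lap and -1.04 ± 0.20 in BT474/Lap, where the scaled level was 2.06-fold lower. This fall lay at the 2-fold limit and was -0.92 under quantile normalization. The difference between SkBr3 and BT474 was 1.59-fold in the parental cells and 4.38-fold in the clones. The log2 fold change of EPCAM itself was -0.14 in SkBr3/Lap, and it was -0.93 in BT474/Lap.

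CLDN8, a claudin known from the distal nephron and the colon, was the member with the largest measured rise in BT474/Lap. Its single probe had signals of 3.26 in SkBr3 and 38.6 in its clone, and of 214 in BT474 and 731 in its clone. It was not well above background in SkBr3 and was brighter on both BT474 arrays than on either SkBr3 array. The log2 fold change in BT474/Lap was 1.24 ± 0.20, or 2.35-fold, and fell to 0.92 with normexp background correction before quantile normalization. In SkBr3/Lap the gene was at least 1.30-fold higher, since the parental signal gives only a limit. BT474 exceeded SkBr3 at least 12.9-fold among parental cells and 23.3-fold among clones, the reverse of the order of CLDN1.

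CLDN12 encodes a claudin without the PDZ-binding end that most claudins use to hold the zonula occludens proteins. The brighter probe had signals of 570 in SkBr3 and 707 in its clone, and of 326 in BT474 and 597 in its clone, with log2 fold changes of -0.59 ± 0.20 and 0.34 ± 0.20. The other probe stayed under a signal of 100 on every array, with a highest signal of 55.8, and went the other way in each clone, at least 1.75-fold higher in SkBr3/Lap and with a log2 fold change of -0.70 in BT474/Lap. No direction is given for CLDN12.

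OCLN encodes occludin. The brighter probe had signals of 972 in SkBr3 and 1946 in its clone, and of 888 in BT474 and 1104 in its clone, and its scaled levels spanned 0.51 on the log2 scale over the 4 arrays, the narrowest range among the members. The log2 fold changes were 0.11 ± 0.20 in the SkBr3 clone and -0.22 ± 0.20 in the BT474 clone, within or close to the software error. Those of the other probe were 0.06 and -0.37.

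TJP1 encodes ZO-1, the scaffold that binds claudins and occludin through separate domains. The brighter probe had signals of 2201 in SkBr3 and 7371 in its clone, and of 3894 in BT474 and 4149 in its clone, and log2 fold changes of 0.85 ± 0.20 in the SkBr3 clone and -0.45 ± 0.20 in the BT474 clone. The other probe had signals of 1190, 5676, 1486 and 1070 and log2 fold changes of 1.36 ± 0.20, a 2.56-fold rise, and -1.01 ± 0.20, a 2.02-fold fall. Both probes thus had a positive sign in SkBr3/Lap and a negative sign in BT474/Lap. Of the 12 kept member probes, 2, that of CLDN7 and the second of TJP1, had opposite signs in the clones with at least 1 change past 2-fold, against 17.3% of all kept probes. The log2 fold changes of the 2 TJP1 probes differed by 0.51 in SkBr3/Lap and 0.57 in BT474/Lap. Probes of a gene that were well above background on all 4 arrays spanned a median of 0.28 in either comparison. By the brighter probe TJP1 stayed under 2-fold in both clones.

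**Figure D3:**
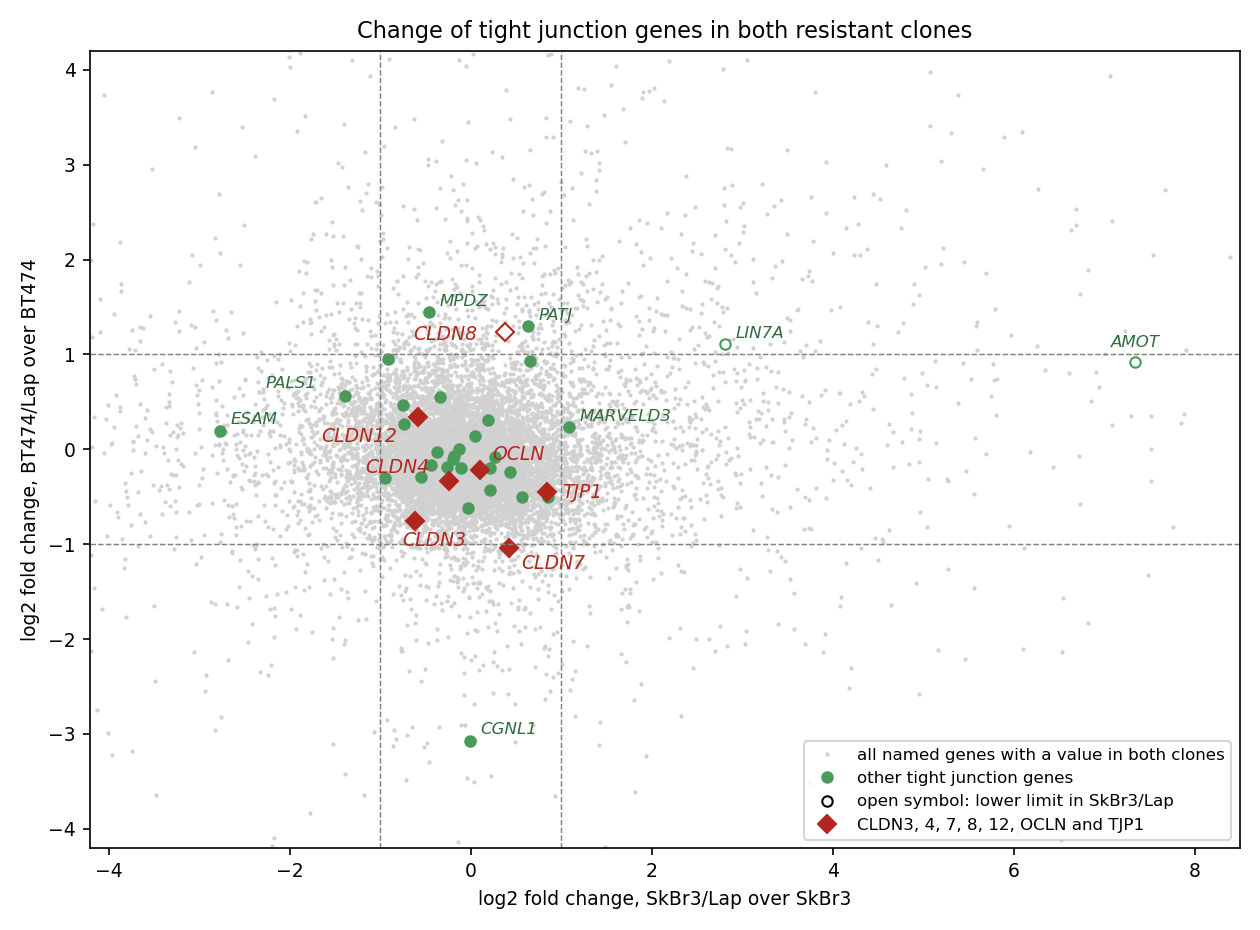
Log2 fold change in SkBr3/Lap (horizontal axis) against that in BT474/Lap (vertical axis) for the members with a value in both clones (red), other tight junction genes (green) and all named genes (gray), with dashed lines at 2-fold. Genes beyond the axes are not drawn and open symbols are lower limits in SkBr3/Lap. CLDN7 lies at -1.04 and CLDN8 at 1.24 on the vertical axis, and the other 5 members drawn lie inside the dashed square.

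The difference of the clones from their parental cells across both lines was tested with limma, with cell line as a block. The lines thus stood in for replicates and 1 residual degree of freedom was left. By limma 0 of 25927 probes had a Benjamini-Hochberg adjusted p under 0.05, and 900 (3.47%) had an unadjusted p under 0.05. Of the 12 kept member probes, that of CLDN8 had the smallest unadjusted p in limma, 0.0323, with an adjusted p of 1.0. Its effect rests in part on the SkBr3 signal that was not well above background.

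The other genes of the tight junction were taken from a list of 52, of which 43 had a probe and 32 a kept probe. In SkBr3/Lap 4 of the 32 passed 2-fold upward and 2 downward, together against 26.4% of all genes, and in BT474/Lap 3 were higher and 1 lower, together against 13.8%. The median log2 fold change of the 32 was -0.07 in SkBr3/Lap and, over the 31 with a value, -0.03 in BT474/Lap. Of the 18 other claudins, 13 had a probe and 4 a kept one, CLDN9, CLDN11, CLDN15 and CLDN23, and 0 of these 4 passed 2-fold in either clone.

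Among the other membrane proteins of the junction, JAM2, a junctional adhesion molecule, had signals of 105 in SkBr3 and 887 in SkBr3/Lap, a rise of 4.56-fold, while both BT474 arrays gave dim signals, not well above background. MARVELD3, a relative of occludin, had signals of 1105 and 4382 in these cells by its brighter probe, 2.13-fold higher, with a log2 fold change of 0.23 in BT474/Lap. Its other probe was 1.94-fold higher in SkBr3/Lap, with a log2 fold change of 0.49 in BT474/Lap. ESAM, an adhesion molecule of endothelial junctions, went from a signal of 764 to 209 in SkBr3/Lap, a fall of 6.81-fold, with a log2 fold change of 0.20 in BT474/Lap. By their brightest probes these 3 genes passed 2-fold in SkBr3/Lap and not in BT474/Lap, and the difference between the clones was not tested.

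Of the 20 plaque and scaffold genes with a kept probe, 3 passed 2-fold in the SkBr3 clone, against 26.4% of all genes. In the BT474 clone 4 of them passed it, against 13.8%. LIN7A was the 1 gene that rose in both clones, against 2.46% of all genes. CGNL1, the gene of paracingulin, had signals of 1688 in SkBr3 and 3118 in its clone, and of 3107 in BT474 and 537 in its clone, with a log2 fold change of -0.01 in SkBr3/Lap and a fall of 8.39-fold in BT474/Lap. Its other probe was 4.65-fold lower in BT474/Lap. AMOT, the gene of angiomotin, had signals of 16.04, 4862, 339 and 933, at least 163-fold higher in the SkBr3 clone and 1.90-fold higher in the BT474 clone. LIN7A, a scaffold of the Crumbs complex, was the gene of this list at least 2-fold higher in both clones, at least 7.0-fold in SkBr3/Lap and 2.16-fold in BT474/Lap, with signals of 4.33, 209, 2257 and 7076. LIN7A and CLDN8 had in common a signal not well above background in SkBr3 and a higher level in BT474 cells.

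By their brightest probes, the scaffold genes PALS1, MPDZ and PATJ each passed 2-fold in a single clone. PALS1 was 2.61-fold lower in SkBr3/Lap, with a log2 fold change of 0.56 in BT474/Lap. MPDZ had a log2 fold change of -0.46 in SkBr3/Lap and was 2.72-fold higher in BT474/Lap. PATJ was 2.46-fold higher in BT474/Lap and had a log2 fold change of 0.63 in SkBr3/Lap by its brightest probe. The log2 fold changes of its other 4 probes lay between 0.69 and 1.21 in BT474/Lap and between -1.24 and -0.51 in SkBr3/Lap. No direction is given for PATJ in SkBr3/Lap. CGN, the gene of cingulin, had log2 fold changes of 0.65 in the SkBr3 clone and 0.93 in the BT474 clone by its brighter probe, and of 0.73 and 0.15 by the other.

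Transcription factors known to act on junction genes were examined beside them. Among the repressors, SNAI1 was 2.61-fold higher in SkBr3/Lap, with signals of 803 and 3901, and its rise in BT474/Lap was 1.73-fold. SNAI2 was at least 15.8-fold higher in BT474/Lap, with signals of 12.1 and 366, and gave no limit above 1 in SkBr3/Lap. TWIST1 was 4.97-fold higher in BT474/Lap (2.07-fold by its other probe), and ZEB1 and ZEB2 were not well above background on any array. Of the epithelial factors, GRHL3 was 14.5-fold lower in the SkBr3 clone and 3.35-fold higher in the BT474 clone, KLF5 rose 2.51-fold in SkBr3/Lap and 2.49-fold in BT474/Lap, and KLF4 rose 3.56-fold in SkBr3/Lap with a log2 fold change of -0.40 in BT474/Lap. EHF was 3.69-fold lower in SkBr3/Lap, while GRHL2, ELF3 and OVOL2 stayed under 2-fold in both clones. Whether any of these factors bears on the members was not tested.

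Genes with a pattern like that of a member were looked for among 10938 named genes well above background on all 4 arrays, by the Euclidean distance between log2 profiles centered on their own mean over the 4 arrays. CLDN7 had the widest range of the members measured on all arrays, 2.13 on the log2 scale, and the nearest genes were GMPPB at a distance of 0.11, KIF4A at 0.12 and PTPN12 at 0.16. CLDN3 followed with a range of 1.68, and its nearest genes were AHCY and PHF14 at 0.09 each and MYL3 at 0.09. Within a distance of 0.5 lay 138 genes for CLDN7 and 313 for CLDN3, so over 4 arrays a close profile is common.

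**Figure D4:**
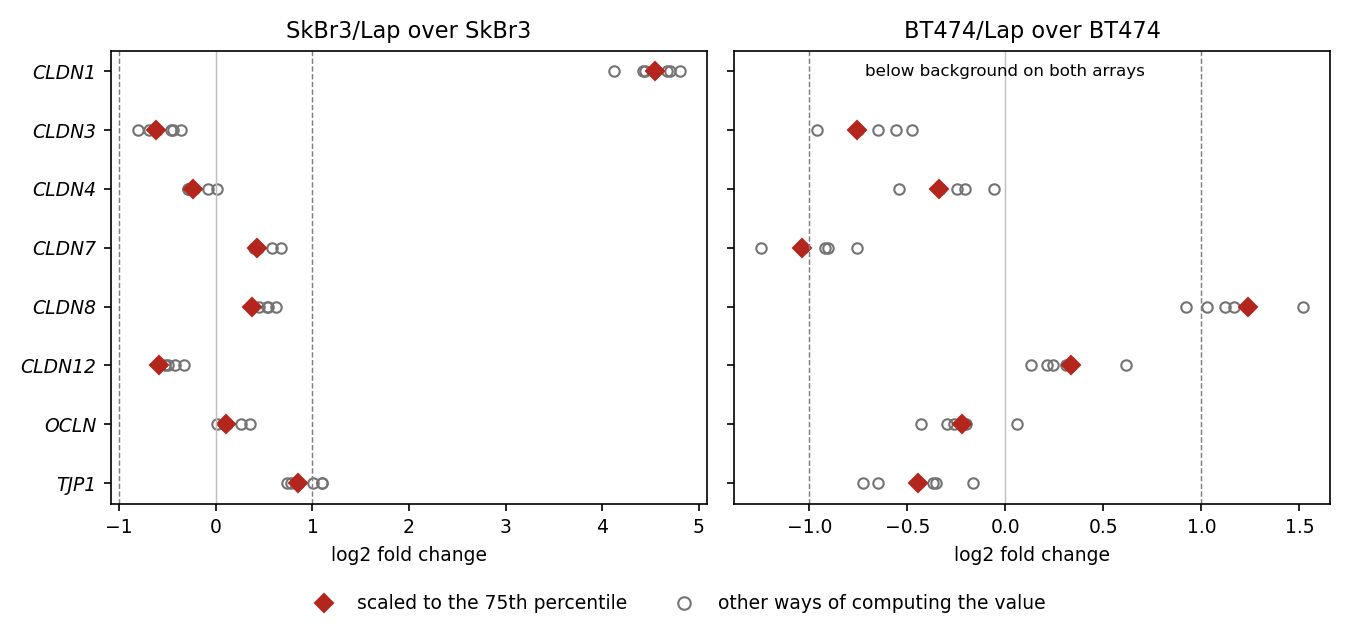
Log2 fold change of each member in each clone with scaling to the 75th percentile (red diamonds) and under the other ways of computing it (open circles), with dashed lines at 2-fold. CLDN1 in SkBr3/Lap stays between 4.12 and 4.80, whereas CLDN7 in BT474/Lap, between -1.25 and -0.76, and TJP1 in SkBr3/Lap, from 0.73 upward, lie on either side of a 2-fold line.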

How the data were processed

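Per the file headers, the authors scanned Agilent Human Whole Genome arrays of the 4 × 44 K format in a single Cy3 channel and deposited for each spot an intensity from which Feature Extraction 10.1.1.1 had removed background and spatial trend, together with median pixel intensities and flags. The methods of the study name an earlier version of this software and LOWESS normalization. The authors also deposited a log2 value per probe and array, centered for each probe, whose differences between clone and parental cells deviated from those computed here by at most 0.000728 for the member probes.

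Spots of a probe were averaged as log2 signals, from which the 75th percentile of all 41000 non-control probes on that array was taken off. A probe was kept at a signal of at least 100 on at least 1 array (25927 probes). At least 50% of a probe's spots had to carry the flag for it to be well above background. A dim signal was raised to the lowest signal well above background on its array and the fold change given as a limit, which was left out where both signals were dim or the limit came to less than 1. Gene names came from RefSeq accessions, matched against GRCh38.p14 (23680 of 41000). For each gene the kept probe brightest on average (log2) was used, and 2-fold changes were counted. The precision is limited by the number of arrays, 1 per group.

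The members and the lists were chosen with earlier results of these data known. Named were all members, list genes at least 2-fold changed in both clones, and the 3 largest measured rises and falls of the other junction genes and of the transcription factors in each clone. Of these, YBX3, AMOTL2 and the values of CLDN11, CLDN15, ELF3 and OVOL2 are left out as under 2-fold. AMOT and SNAI2, whose rises are limits, CGN, GRHL2, CLDN9 and CLDN23 were added after their values were seen. limma 3.58.1 in R 4.3.3 gave the fit across lines, and Python 3.11.15, numpy 2.4.6 and pandas 2.3.3 the rest. Some items that the lists cover are not reported here. The steps were tested on simulated data. Alternatives were other scalings, quantile normalization, normexp correction (offset 50, on median pixel intensities), the deposited table, 16 added before the log2, outlier spots left out, no filter or a stricter one, the mean over probes, a 3-fold threshold, and limma without a block.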

Additional observations from a re-analysis of the deposited data

Results flagged for a closer look

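For 2 probes the clones moved apart, with at least one of the changes past 2-fold. The CLDN7 probe had a log2 fold change of 0.43 in the SkBr3 clone against -1.04 in the BT474 clone. The second TJP1 probe had 1.36 against -1.01. With 1 array per condition the difference between the clones was not tested. By the same criterion, 17.3% of the 25927 kept probes had opposite signs with at least 1 change past 2-fold.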

How the results depend on the processing

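Of the 146 recomputed log2 fold changes of the members, 137 kept their sign and their side of 2-fold. Many could not change, since the other filters left the same probe in use and the deposited values gave nearly the same differences. The mean over probes is also unchanged for a gene with 1 kept probe. Of the 146, 2 changed sign, both under the 75th percentile taken over probes well above background, CLDN4 in SkBr3/Lap to 0.01 and OCLN in BT474/Lap to 0.06. That scaling moved the median of all genes to 0.20 in either clone, and scaling by the median moved it to 0.11 in the SkBr3 clone and -0.29 in the BT474 clone. Relative to the median of all genes, no member changed sign under the 8 scalings, but most of these had to give the same relative values. Scaling by either percentile or by the median shifts a whole array, which cancels against that median. The deposited values and the signals without outlier spots gave nearly the same differences. Only quantile normalization, normexp correction and the constant added before the log2 could thus move a relative value appreciably. With these included, CLDN7 in BT474/Lap lay between -0.96 and -0.86 and TJP1 in SkBr3/Lap between 0.75 and 0.92. The members at least 2-fold higher in SkBr3/Lap became 2, with TJP1 added, under the percentile over probes well above background, under scaling by the median and with the mean over probes, and 0 when only probes well above background on all 4 arrays were used, which leaves out CLDN1. In BT474/Lap the member at least 2-fold higher was lost (0) with normexp correction, on the probes well above background on all arrays, which leave out CLDN8, and at 3-fold. The member at least 2-fold lower in BT474/Lap was lost (0) under the percentile over probes well above background, quantile normalization, normexp correction and at 3-fold, with CLDN7 at -0.76, -0.92 and -0.90 under the first 3. Of the other tight junction genes, 1 in place of 4 was higher in SkBr3/Lap under the filter for signals above background on every array, and 1 in place of 2 was lower at 3-fold. In BT474/Lap 6 in place of 3 were higher under the percentile over probes well above background, and 0 at 3-fold. By limma 0 probes passed under each of its 5 alternatives, with 308 to 2043 probes at an unadjusted p under 0.05. Clone and parental cells were paired by cell line in the limma fit. No further pairing by replicate number was possible, as each group holds 1 array, and that fit with 1 array left out has no residual degree of freedom. Signals near 15 limit what can be said of CLDN1 in BT474 and CLDN8 in SkBr3 cells.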
